A study of Homo sapiens with 12 samples.

Results

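BxPC-3 and CFPAC-1 are established human lines of pancreatic ductal adenocarcinoma, and the comparison described here sets one line against the other after both had gone 48 h without serum, which makes cells grow primary cilia. It rests on the 3 starved BxPC-3 and the 3 starved CFPAC-1 libraries, 6 of the 12 RNA-seq libraries of the study, and on the genes with at least 1 FPKM in 3 or more of these 6. FPKM is the number of fragments per kilobase of transcript, scaled to 1e+06 mapped fragments. That left 11780 of the 60564 genes of the table, 10433 of them protein coding. The other 6 libraries, 3 of each line in normal culture (control), did not enter the tests and are used only for values set beside them. The study's text gives ciliated cells as 78% of starved BxPC-3 and 39% of starved CFPAC-1 cells, against 5% and 7% in normal culture, with no error. The labels name no genotype, drug or transgene. Line and ciliated share differ together in these 6 libraries, so they cannot be told apart. The labels do not say whether the libraries of a line came from separate cultures, so the p-values speak only of variation among these libraries, possibly technical in part. In RNA from whole cultures, fewer cells of a kind and less RNA per cell cannot be told apart either.

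Pancreatic ductal adenocarcinomas are often divided into a classical kind, which keeps genes of the foregut and gut lineage, and a basal-like or squamous kind, which uses the keratins, desmosomes and cornified-envelope proteins of stratified epithelium. Epithelial cells are joined by E-cadherin, tight junctions and desmosomes, whereas mesenchymal cells carry vimentin filaments and factors such as ZEB1. The primary cilium is a single sensory projection that grows from the mother centriole by intraflagellar transport in resting cells and is taken down when they return to the cell cycle, and Hedgehog signalling runs through it. BxPC-3 is known as a line that has lost CDKN2A and SMAD4, and CFPAC-1 as a line from a patient with cystic fibrosis, the disease of the chloride channel CFTR.

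Markers of the duct cell were present only in part, so the lines are named here by their labels. Of 15 duct markers, 10 passed the filter. By the calls defined below, 3 of these were higher in BxPC-3, 1 was higher in CFPAC-1 and 6 were not called. Their median log2 difference was 0.07. KRT19, a keratin of duct epithelium, was at 1088, 538 and 537 FPKM in BxPC-3 and 254, 627 and 556 FPKM in CFPAC-1, and these ranges overlapped. KRT7, another duct keratin, was at 396, 553 and 532 FPKM in BxPC-3 and 0.926, 1.97 and 1.4 FPKM in CFPAC-1. Other duct markers were present in CFPAC-1, with KRT8 at 50.7, 148.5 and 184.8 FPKM, KRT18 at 125, 244 and 216, and EPCAM at 11.2, 14.85 and 13.04. SOX9 was higher in CFPAC-1, as given below. CFTR was at 0 FPKM in each CFPAC-1 library and at most 0.00701 FPKM in BxPC-3. E-cadherin (CDH1), a junction gene and not a duct marker, stayed under 1 FPKM in the 3 CFPAC-1 libraries. Whether the CFPAC-1 libraries hold that line was not tested.

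Markers of other cell types were mostly low. No acinar marker of 15 passed the filter, with summed levels of 1.31 to 8.41 FPKM in BxPC-3 and 0.0351 to 0.216 in CFPAC-1, and INS, GCG, SST, MS4A1, AMY2A and POSTN were listed at 0 in all 6 libraries. The summed FPKM of 12 fibroblast markers ran from 5.69 to 8.92 in BxPC-3 and from 26.9 to 111 in CFPAC-1, of which LUM alone made up 25.5 to 108.3. Only 2 of the 12 passed the filter, LUM, higher in CFPAC-1, and 1 that was higher in BxPC-3. COL1A2, COL3A1, DCN and PDGFRB each stayed under 1 FPKM in all 6 libraries. Of 15 immune markers 2 passed the filter, 1 higher in BxPC-3 and 1 higher in CFPAC-1. The summed FPKM of all 15 ran from 9.55 to 13.87 in BxPC-3 and from 42.2 to 49.2 in CFPAC-1. PTPRC, which all leukocytes carry, was at most 0.00578 FPKM. Of 10 endothelial markers 2 passed, both higher in CFPAC-1. The sum of all 10 ran from 5.51 to 6.33 in BxPC-3 and from 30.05 to 36.28 in CFPAC-1. These sums moved with the line, and their part in the results was not tested.

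The libraries numbered 1 stood apart from the other two of their line. In CFPAC-1, 439 tested genes were at least 2-fold above both other libraries in library 1 and 314 were that far below, against at most 19 and 37 in libraries 2 and 3. BxPC-3 library 1 had 323 and 202 such genes, against at most 17 and 46. Mitochondrially encoded genes took 11.6% of the summed FPKM in CFPAC-1 library 1, and 18.6% to 22.8% in the other 5. Correlations across genes of log2(FPKM + 1) were 0.936 to 0.988 within a line and 0.738 to 0.775 between lines, as a description of these libraries. Depth in reads is unknown. BxPC-3 library 1 also had traces of the genes that mark CFPAC-1. Among the 46 genes at least 16-fold higher in CFPAC-1, it was the highest BxPC-3 library in 39, with a median of 0.993% of the CFPAC-1 mean against 0.207% and 0.241% in libraries 2 and 3. Among the 94 genes at least 16-fold higher in BxPC-3, CFPAC-1 libraries 2 and 3 had medians of 0.604% and 0.642% of the BxPC-3 mean. CFPAC-1 library 1 had 0.25%. The part of these traces in the results was not tested. The CFPAC-1 control libraries also did not form one group, and control 1 is kept apart from controls 2 and 3 wherever they are used.

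Large parts of the transcriptome differed between the starved lines. Of 11780 tested genes, 2868 (24.3%) were called, which here means a limma adjusted p under 0.05 and a difference of at least 1 in mean log2(FPKM + 1), BxPC-3 minus CFPAC-1, so that a positive difference is higher in BxPC-3. Of these, 1607 (13.6% of tested genes) were higher in BxPC-3 and 1261 (10.7%) higher in CFPAC-1. The libraries of the 2 lines did not overlap in 2854 of the 2868, and over all tested genes 32.6% did not overlap with BxPC-3 higher and 22.8% with CFPAC-1 higher. At any size, 5084 genes (43.2%) passed the adjusted threshold, against 2479 when libraries 2 and 3 of each line were averaged and 7752 without the libraries numbered 1. The median difference of all tested genes was 0.13, and centring each library on its median moved it to -0.01 and the share of calls that were higher in BxPC-3 from 56% to 45.4%. The shares of 13.6% and 10.7% are the background against which the counts of each gene list below are to be read. A gene present in 1 line only passes the filter through the line where it is high, so its call is partly set by the filter. The counts and medians of the lists below carry the same limit. Without the libraries numbered 1, 3069 genes were called, 1694 of them higher in BxPC-3. Among genes that passed the filter, 47.2% of 199 lincRNAs were called against 24.1% of 10433 protein-coding genes. How far the filter set these shares, by passing genes present in 1 line only, was not tested.

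The largest differences were in genes abundant in one line and near 0 in the other. SERPINB2, an inhibitor of plasminogen activators, was at 96.5, 515 and 478 FPKM in BxPC-3 and 0 FPKM in each CFPAC-1 library (difference 8.17, SE 0.60, limma adjusted p = 6.79e-05), with library 1 the lowest of BxPC-3. LDHB, the subunit of lactate dehydrogenase typical of heart, was at 138, 232 and 229 FPKM in BxPC-3 and 0 FPKM in each CFPAC-1 library (difference 7.61, SE 0.23, limma adjusted p = 2.22e-06). That the lines separate in these genes was set by their choice, since leading genes were taken only where the lines do not overlap. Both genes passed the filter through BxPC-3 alone. FST, which encodes the activin antagonist follistatin, was at 91.9, 182 and 179 FPKM in BxPC-3 and 0.0173, 0 and 0.148 FPKM in CFPAC-1. GLUL, glutamine synthetase, was at 98.1, 92.2 and 91.3 FPKM in BxPC-3 and 0, 0.0205 and 0.0208 FPKM in CFPAC-1. SPRR1B, a precursor of the cornified envelope, was at 101, 80 and 83.03 FPKM in BxPC-3 and 0 FPKM in each CFPAC-1 library. Other genes among the 15 leading ones of BxPC-3 were the keratins KRT17 (9.20), KRT6A (8.25), KRT7 (7.67) and KRT13 (6.05), and also S100A9 (8.08), ANXA8L1 (6.58), S100A14 (6.30), WFDC2 (6.25) and C15orf48 (6.10), with the log2 difference in brackets.

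CFPAC-1 was led by secreted binding proteins and by proteins of absorptive and mesenchymal cells. IGFBP1, a binding protein of insulin-like growth factors, was at 321, 835 and 915 FPKM in CFPAC-1 and 1.93, 0.0326 and 0.0615 FPKM in BxPC-3 (difference -8.73, SE 0.53, limma adjusted p = 3.01e-05). IGFBP3, the main carrier of these factors in blood, was at 243, 267 and 276 FPKM in CFPAC-1 and 3.15, 0.0119 and 0.0374 FPKM in BxPC-3 (difference -7.33, SE 0.52, limma adjusted p = 5.9e-05). ANPEP, an aminopeptidase of the brush border, was at 126, 264 and 252 FPKM in CFPAC-1 and 0.693, 0 and 0 FPKM in BxPC-3 (difference -7.42, SE 0.34, limma adjusted p = 9.19e-06). In all 3 genes the BxPC-3 values other than that of library 1 were under 0.1 FPKM. PSAP, the precursor of the lysosomal saposins, was at 415, 526 and 523 FPKM in CFPAC-1 and 2.13, 0.017 and 0.0615 FPKM in BxPC-3. It is used by most cells, and why it was listed near 0 in BxPC-3 libraries 2 and 3 was not tested. PSAP was also near 0 in the BxPC-3 controls, at 0, 0.267 and 0.287 FPKM. It lay in a run of 6 neighbours on chromosome 10 called higher in CFPAC-1, with a median of -3.11. Other values of 0 are likewise only listed at 0, and a difference against them depends on the 1 added before the logarithm. VIM, vimentin, was at 975, 961 and 970 FPKM in CFPAC-1 and 9.92, 8.92 and 11.5 FPKM in BxPC-3 (difference -6.45, SE 0.15, limma adjusted p = 1.44e-06), and nearly equal in the CFPAC-1 libraries. S100A4, a calcium-binding protein of motile cells, was at 822, 1687 and 1468 FPKM in CFPAC-1 and 14.2, 11.4 and 11.4 FPKM in BxPC-3. The rest of the 15 were CDH17 (-6.60), MSLN (-6.32), LUM (-5.96), CDKN2A (-5.39), AKR1C2 (-5.32), TM4SF4 (-5.27), QPRT (-5.24), VAMP5 (-5.15) and TIMP4 (-5.11). ANXA8L1 and AKR1C2 have near-identical copies, so their single values are uncertain.

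**Figure D1:**
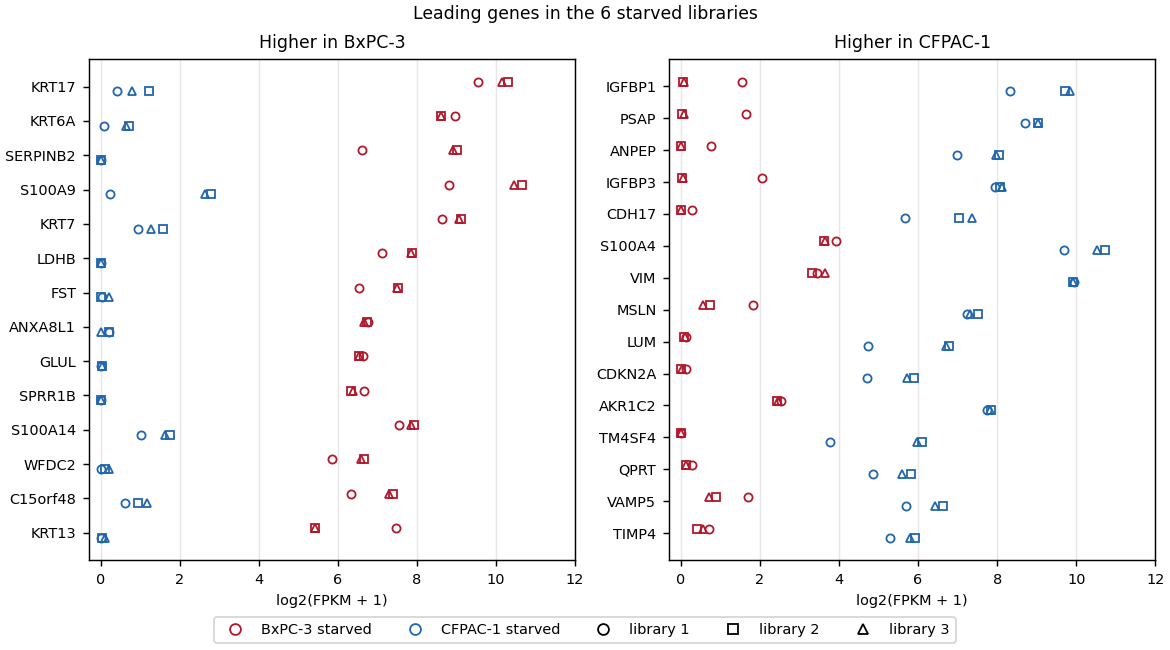
Levels of the leading genes in each direction, as log2(FPKM + 1) on the horizontal axis, with one symbol per starved library (red BxPC-3, blue CFPAC-1; circle, square and triangle for libraries 1, 2 and 3). The genes were picked so that the 2 lines do not overlap, and BxPC-3 library 1 lies to the right of libraries 2 and 3 for IGFBP1, PSAP and IGFBP3.

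Upstream sequence of 4 leading genes is shown because the 2 leading genes of BxPC-3 and the 2 of CFPAC-1 given here differ in base composition there. Each run is the 250 bases before the transcription start in RefSeq, build GRCh38.p14, 5′ to 3′ on the gene's strand. Capitals mark the AP-1 site TGANTCA, the TATA box TATAAA and the GC box GGGCGG, searched on both strands; the AP-1 site reads alike on both strands. SERPINB2 (chr18:63887455-63887704, plus strand) and SPRR1B (chr1:153030953-153031202, plus strand) are high in BxPC-3. ANPEP (chr15:89814853-89815102, minus strand) and IGFBP3 (chr7:45921273-45921522, minus strand) are high in CFPAC-1.
SERPINB2: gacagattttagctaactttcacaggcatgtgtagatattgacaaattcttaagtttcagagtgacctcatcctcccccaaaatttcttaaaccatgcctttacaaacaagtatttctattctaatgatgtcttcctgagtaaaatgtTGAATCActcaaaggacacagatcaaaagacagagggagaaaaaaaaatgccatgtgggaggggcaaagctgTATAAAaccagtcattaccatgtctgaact
SPRR1B: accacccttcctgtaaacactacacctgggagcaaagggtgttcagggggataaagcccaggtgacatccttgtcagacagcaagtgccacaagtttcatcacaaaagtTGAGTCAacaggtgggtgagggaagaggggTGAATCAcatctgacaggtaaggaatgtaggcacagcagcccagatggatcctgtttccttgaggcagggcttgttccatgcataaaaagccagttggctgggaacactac
ANPEP: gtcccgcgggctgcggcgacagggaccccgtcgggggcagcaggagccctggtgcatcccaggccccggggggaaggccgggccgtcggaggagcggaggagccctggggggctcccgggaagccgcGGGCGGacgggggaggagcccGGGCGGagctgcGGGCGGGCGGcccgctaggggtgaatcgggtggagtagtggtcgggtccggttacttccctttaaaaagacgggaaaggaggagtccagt
IGFBP3: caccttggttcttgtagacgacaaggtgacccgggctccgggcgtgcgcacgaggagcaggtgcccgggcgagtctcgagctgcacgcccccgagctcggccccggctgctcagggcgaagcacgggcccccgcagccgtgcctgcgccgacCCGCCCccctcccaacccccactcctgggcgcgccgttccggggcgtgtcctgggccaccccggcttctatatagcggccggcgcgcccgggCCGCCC

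SERPINB2 held 1 AP-1 site, 102 bases before the start, and a TATA box 30 before it. SPRR1B held 2 AP-1 sites, 141 and 111 bases before the start. Neither had a CG pair, and GC made up 37.2% and 50.8% of their bases. ANPEP held 4 GC boxes, of which those 90 and 86 bases before the start overlap, and 26 CG pairs at 74% GC, and IGFBP3 2 GC boxes and 32 CG pairs at 76% GC. The contrast was smaller among the calls as a whole. Of the promoters in the RefSeq table, 8300 matched tested genes, and median GC was 64% for the 1150 called higher in BxPC-3, 66.8% for the 741 higher in CFPAC-1 and 65.2% for the 6409 not called. An AP-1 site was in 6.43% of the first, 5.26% of the second and 3.57% of the third, and in 6.6% of all 27305 promoters. A GC box was in 65.3%, 68.7% and 70.1% of the same sets, and their median numbers of CG pairs were 19, 20 and 22. GC boxes and CG pairs therefore hardly differed between the calls, unlike in the 4 promoters shown. A match describes the letters and not a bound site.

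Genes of stratified squamous epithelium were higher in BxPC-3. Of 18 listed squamous lineage factors, 7 were below the filter. Of the 11 tested, 10 were called higher in BxPC-3 and none higher in CFPAC-1, with a median difference of 1.65. Factors near 0 in CFPAC-1 passed the filter only through BxPC-3, so these values are partly set by it. TP63, the master factor of basal squamous cells, was at 11.3, 5.19 and 7.09 FPKM in BxPC-3 and 0.0358, 0.0467 and 0.13 FPKM in CFPAC-1 (difference 2.99, SE 0.25, limma adjusted p = 0.000136). SOX15 was at 27.5, 32.1 and 30.8 FPKM in BxPC-3 and 0.235, 0.502 and 0.988 FPKM in CFPAC-1 (difference 4.33, SE 0.20, limma adjusted p = 9.6e-06). GRHL2, which keeps epithelial junction genes active, was at 12.4, 5.76 and 5.63 FPKM in BxPC-3 and 0, 0.0163 and 0 FPKM in CFPAC-1 (difference 3.07, limma adjusted p = 0.000199). All BxPC-3 libraries were above all CFPAC-1 libraries for these factors, which were named for their large differences. BxPC-3 library 1 was the highest for TP63 and GRHL2. SOX2 was at 8.54, 1.95 and 2.45 FPKM in BxPC-3 and 0 FPKM in each CFPAC-1 library (difference 2.20, limma adjusted p = 0.00492), and OVOL1 differed by 1.86.

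Keratins of stratified epithelium followed, with 7 of 11 tested members called higher in BxPC-3, none higher in CFPAC-1 and a median of 2.64. KRT17 was at 749, 1271 and 1135 FPKM in BxPC-3 and 0.338, 1.32 and 0.734 FPKM in CFPAC-1 (difference 9.20, SE 0.28, limma adjusted p = 2.31e-06), and KRT6A was at 496, 388 and 391 FPKM in BxPC-3 and 0.0654, 0.632 and 0.557 FPKM in CFPAC-1 (difference 8.25, SE 0.21, limma adjusted p = 1.44e-06). Both are induced in stressed or wounded epidermis, and both were among the most abundant keratins of BxPC-3 by FPKM. KRT5, the type II keratin of basal cells, was at 499, 230.1 and 258 FPKM in BxPC-3 and 1.89, 43.7 and 38.7 FPKM in CFPAC-1 (difference 4.17, SE 1.01, limma adjusted p = 0.0136), and KRT13, a keratin of moist surfaces, at 175, 41.8 and 41.5 FPKM in BxPC-3 and 0.0122, 0.0257 and 0.0702 FPKM in CFPAC-1. The call of KRT5 was lost without BxPC-3 library 1, at a difference of 3.83 (limma adjusted p = 0.0619). KRT14, the partner of KRT5, was not called, at 19.5, 45.9 and 40.9 FPKM in BxPC-3 and 5.17, 56.1 and 51.97 FPKM in CFPAC-1, and its ranges overlapped. KRT6A has near-identical copies in KRT6B and KRT6C. Keratins of simple epithelium gave 3 of 6 higher in BxPC-3, among them KRT7 (7.67) and KRT23 (2.51), whereas KRT8 was at 43.1, 56.5 and 63.2 FPKM in BxPC-3 and 50.7, 148 and 185 FPKM in CFPAC-1 (limma adjusted p = 0.107, and a call at a difference of -1.61 without CFPAC-1 library 1) and KRT18 at 90.6, 154 and 153 FPKM in BxPC-3 and 125, 244 and 216 FPKM in CFPAC-1 (0.21).

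Proteins of the desmosome and the cornified envelope gave 18 of 24 tested members higher in BxPC-3, 1 higher in CFPAC-1 and a median of 2.69. SPRR2A was at 54.5, 51.2 and 51.5 FPKM in BxPC-3 and 0, 0.313 and 0 FPKM in CFPAC-1, and SPRR1A at 17.4, 17.2 and 20.03 FPKM in BxPC-3 and 0 FPKM in each CFPAC-1 library (difference 4.26, limma adjusted p = 2.71e-06). CSTA, a protease inhibitor of the envelope, was at 31.2, 61.4 and 54.7 FPKM in BxPC-3 and 0.517, 0.396 and 0.429 FPKM in CFPAC-1, and the plakin PPL at 76.9, 27.5 and 27.9 FPKM in BxPC-3 and 1.34, 1.88 and 2.18 FPKM in CFPAC-1. These genes were at or near 0 in CFPAC-1, apart from PPL at 1 to 2 FPKM. SBSN went the other way, at 2.91, 3.1 and 3.54 FPKM in CFPAC-1 and 0.128, 0.81 and 0.494 FPKM in BxPC-3 (difference -1.53, limma adjusted p = 0.00104). PERP, a desmosome protein, missed the 2-fold threshold with a difference of 0.96 (limma adjusted p = 0.00878). SPRR2A shares near-identical sequence with other SPRR2 genes.

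The basal-like list gave 16 of 24 higher in BxPC-3 and 2 higher in CFPAC-1, with a median of 2.57. Its 2 members that were higher in CFPAC-1 were FAM83A (-2.67), at 219, 98.2 and 147 FPKM in CFPAC-1 and 30.4, 19.1 and 18.8 FPKM in BxPC-3, and LEMD1 (-2.38). The classical list was split, with 3 of 13 higher in BxPC-3 and 6 higher in CFPAC-1. CEACAM6, a glycoprotein of mucosal cells, was at 71.9, 15.3 and 17.1 FPKM in BxPC-3 and 0.859, 0.419 and 0.396 FPKM in CFPAC-1, with library 1 far above the others, and ANXA10 was at 31.7, 16.4 and 16.7 FPKM in BxPC-3 and 0.188, 0.32 and 0.431 FPKM in CFPAC-1. On the other side were the intestinal genes CDH17 (-6.60), MYO1A (-3.78) and LGALS4 (-3.47). GATA6, the factor used to mark classical tumours, was at 11.9, 9.54 and 10.3 FPKM in BxPC-3 and 7.31, 6.3 and 6.46 FPKM in CFPAC-1, higher in every BxPC-3 library but under 2-fold (difference 0.59, limma adjusted p = 0.0186).

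**Figure D2:**
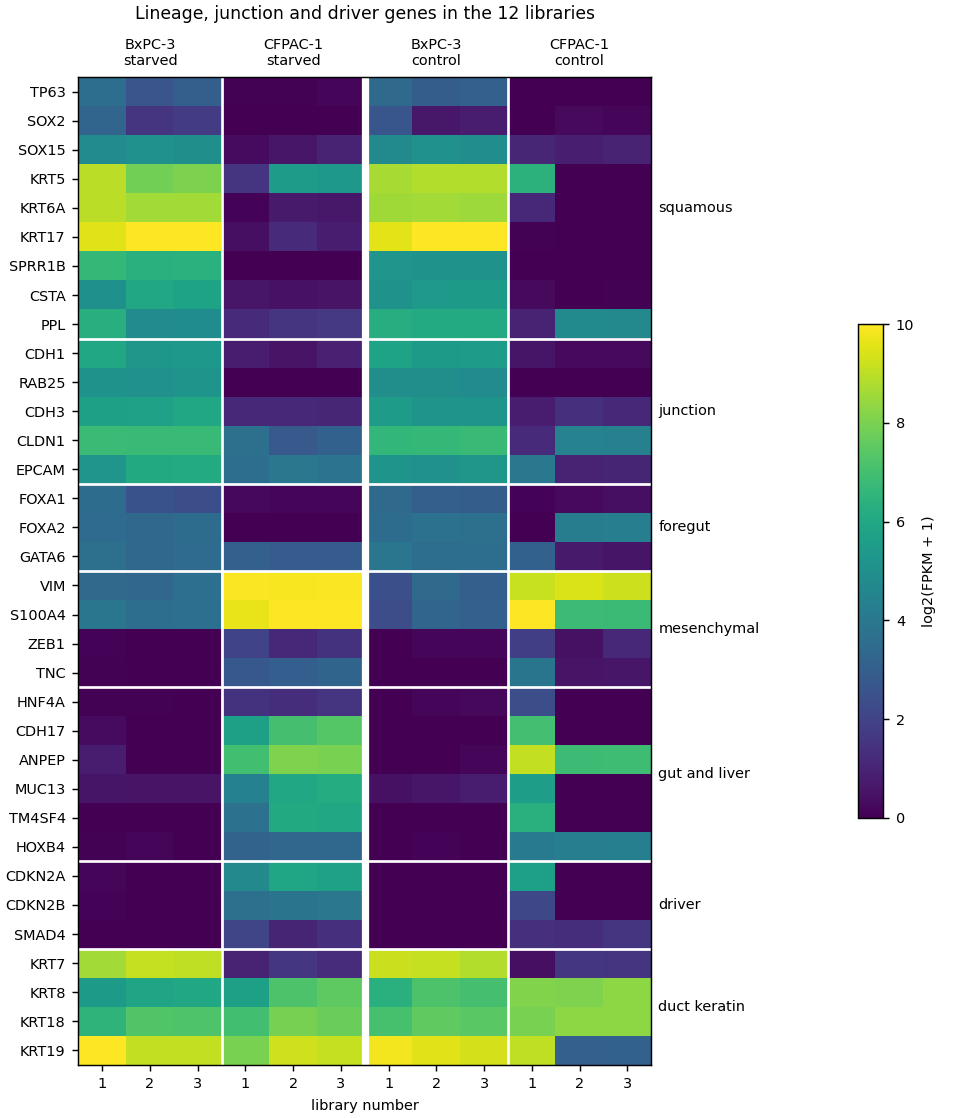
Levels of lineage, junction and driver genes in all 12 libraries, coloured by log2(FPKM + 1) from 0 (dark) to 10 or above (yellow), with genes in rows and libraries in columns. The starved lines separate for the squamous and junction genes (lighter in BxPC-3) and for VIM and S100A4 (yellow in CFPAC-1), and CFPAC-1 control libraries 2 and 3 differ from control library 1 for CDKN2A, CDH17 and KRT19.

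Junction genes of epithelium were also higher in BxPC-3. Of 22 tested tight and adherens junction genes, 17 were called higher in BxPC-3 and 1 higher in CFPAC-1, with a median of 1.93. CDH1 was at 61.04, 38.1 and 39.6 FPKM in BxPC-3 and 0.743, 0.423 and 0.892 FPKM in CFPAC-1 (difference 4.79, SE 0.23, limma adjusted p = 9.56e-06). CDH3, P-cadherin, was at 50.9, 51.6 and 63.6 FPKM in BxPC-3 and 1.21, 1.24 and 1.09 FPKM in CFPAC-1 (difference 4.69, limma adjusted p = 2.71e-06). RAB25, a small GTPase of epithelial recycling, was at 33.7, 32.4 and 35 FPKM in BxPC-3 and 0 FPKM in each CFPAC-1 library, and the protease inhibitor SPINT1 at 101, 96.4 and 97.6 FPKM in BxPC-3 and 0.931, 1.11 and 1.26 FPKM in CFPAC-1. The LSR protein of tricellular junctions differed by 4.23. For each of these genes the lowest BxPC-3 value lay far above the highest CFPAC-1 value, which is partly set by naming the members with the largest differences. EPCAM was at 36.2, 65.7 and 67.9 FPKM in BxPC-3 and 11.2, 14.8 and 13.04 FPKM in CFPAC-1 (difference 1.99, limma adjusted p = 0.00102), so CFPAC-1 kept this epithelial marker above 10 FPKM. Of the claudins, which seal tight junctions, CLDN1 was at 111, 106 and 109 FPKM in BxPC-3 and 11.97, 5.94 and 7.55 FPKM in CFPAC-1 (difference 3.58, limma adjusted p = 4.29e-05).

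Mesenchymal genes did not move in one direction. Of 15 tested, 6 were higher in CFPAC-1 and 5 higher in BxPC-3, and the median was 0.29. Beside VIM and S100A4, ZEB1, a repressor of CDH1, was at 3.04, 1.2 and 1.74 FPKM in CFPAC-1 and 0.0621, 0.0062 and 0 FPKM in BxPC-3 (difference -1.50, limma adjusted p = 0.00199). TNC, the matrix protein tenascin C, was at 5.78, 6.99 and 8.25 FPKM in CFPAC-1 and 0.0487, 0 and 0 FPKM in BxPC-3 (difference -2.97, limma adjusted p = 1.92e-05), and ITGA5, the fibronectin receptor chain, at 78.02, 74.5 and 66.1 FPKM in CFPAC-1 and 31.4, 29.01 and 30.9 FPKM in BxPC-3 (difference -1.23, limma adjusted p = 0.000584). In BxPC-3, by contrast, FN1, fibronectin itself, was at 3.11, 3.29 and 4.58 FPKM in BxPC-3 and 0.0134, 0.0336 and 0.0365 FPKM in CFPAC-1 (difference 2.17, limma adjusted p = 8.7e-05), and LOX, which crosslinks collagen, at 3.18, 2.95 and 2.63 FPKM in BxPC-3 and 0.0558, 0.0445 and 0 FPKM in CFPAC-1. SNAI2 was not called, with a difference of 0.29 (limma adjusted p = 0.165), and ranged from 15.3 to 22.7 FPKM over the 6 libraries.

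Brush-border genes were the group with the highest share in the direction of CFPAC-1 among lists of 10 or more tested members. Of 14 tested, 11 were higher in CFPAC-1 and 2 in BxPC-3, with a median of -3.55. CDH17, an intestinal cadherin, was at 50.1, 131 and 165 FPKM in CFPAC-1 and 0.22, 0 and 0 FPKM in BxPC-3 (difference -6.60, SE 0.42, limma adjusted p = 3.5e-05). TM4SF4, a tetraspan protein of gut and liver, was at 12.7, 67.2 and 61.6 FPKM in CFPAC-1 and 0, 0 and 0.00912 FPKM in BxPC-3 (difference -5.27, limma adjusted p = 0.000429), and the peptidase DPP4 at 10.5, 22.9 and 25.7 FPKM in CFPAC-1 and 0.14, 0 and 0.0217 FPKM in BxPC-3 (difference -4.21, limma adjusted p = 7.53e-05). USH1C, which links microvillar cadherins, was at 15.1, 24.9 and 23.7 FPKM in CFPAC-1 and 0.116, 0 and 0.0123 FPKM in BxPC-3. CFPAC-1 library 1 had the lowest value of its line in all 4. These members were named for their large differences, so the separation of the lines in them is partly set by the choice. MYO1D was the largest exception, at 20.5, 14.1 and 15.4 FPKM in BxPC-3 and 0.29, 0.16 and 0.0934 FPKM in CFPAC-1 (difference 3.89, limma adjusted p = 9.56e-06), and VILL (2.15) the other.

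Factors that set gut, liver and pancreas identity were divided between the lines. FOXA2 was at 10.3, 9.25 and 10.7 FPKM in BxPC-3 and 0 FPKM in each CFPAC-1 library (difference 3.47, SE 0.14, limma adjusted p = 5.19e-06) and FOXA1 at 10.7, 4.79 and 4.29 FPKM in BxPC-3 and 0.151, 0.101 and 0.12 FPKM in CFPAC-1 (difference 2.66, limma adjusted p = 0.000501). These pioneer factors open chromatin in foregut cells, and EHF, an epithelial ETS factor, was likewise higher in BxPC-3 by 2.08. HNF4A, a nuclear factor that drives liver and gut genes, was at 1.75, 1.5 and 1.85 FPKM in CFPAC-1 and 0.0337, 0.0404 and 0.024 FPKM in BxPC-3 (difference -1.39, limma adjusted p = 0.000289), and did not pass 0.05 FPKM in BxPC-3. SOX9, the duct progenitor factor, was at 18.9, 13.2 and 14.5 FPKM in CFPAC-1 and 4.78, 2.2 and 2.44 FPKM in BxPC-3 (difference -2.03, limma adjusted p = 0.000905), KLF4 (-1.62) and CREB3L3 (-2.15) were also higher in CFPAC-1. In all, 3 of 14 tested factors were higher in BxPC-3 and 5 in CFPAC-1, or 8 in CFPAC-1 without the libraries numbered 1. KLF5 was not called, at 82.03, 56.8 and 51.7 FPKM in BxPC-3 and 58.6, 45.4 and 49.6 FPKM in CFPAC-1.

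Mucins and surface glycans also split. MUC13, a mucin of the gut surface, was at 20.3, 61.99 and 73.05 FPKM in CFPAC-1 and 0.498, 0.431 and 0.438 FPKM in BxPC-3 (difference -4.99, limma adjusted p = 0.000164), and FCGBP (-2.76) was higher in CFPAC-1 too. MUC4, a large membrane mucin of pancreatic tumours, was at 4.24, 2.18 and 2.33 FPKM in BxPC-3 and 0.0065, 0 and 0.00256 FPKM in CFPAC-1 (difference 1.93, limma adjusted p = 0.000475), with MUC20 (1.68) in the same direction. MUC1 was not called, at 18.4, 10.1 and 9.7 FPKM in BxPC-3 and 10.6, 35.3 and 31.5 FPKM in CFPAC-1 (limma adjusted p = 0.175), but was called higher in CFPAC-1 without CFPAC-1 library 1, at -1.38. Enzymes that build glycans were mostly higher in BxPC-3, 13 of 21 tested against 1 higher in CFPAC-1. FUT3, which makes Lewis antigens, was at 6.2, 5.13 and 4.44 FPKM in BxPC-3 and 0.134, 0 and 0 FPKM in CFPAC-1 (difference 2.58, limma adjusted p = 3.72e-05), and GALNT3, which starts mucin-type chains, at 13.2, 11.9 and 11.98 FPKM in BxPC-3 and 0.0107, 0 and 0.0118 FPKM in CFPAC-1 (difference 3.73, limma adjusted p = 4.2e-06). GCNT3, which branches mucin chains, was the exception, at 6.41, 23.7 and 23.4 FPKM in CFPAC-1 and 1.14, 1.06 and 0.846 FPKM in BxPC-3 (difference -3.03, limma adjusted p = 0.00166). CEACAM5, the carcinoembryonic antigen, was at 26.7, 7.13 and 7.24 FPKM in BxPC-3 and 0.451, 0.182 and 0.271 FPKM in CFPAC-1 (difference 3.24, limma adjusted p = 0.00137).

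Position-setting and germline genes separated the lines. Of 10 tested HOXB genes, 7 were higher in CFPAC-1 and none in BxPC-3. HOXB4 was at 8.09, 8.85 and 9.4 FPKM in CFPAC-1 and 0.0535, 0.0998 and 0 FPKM in BxPC-3 (difference -3.22, SE 0.14, limma adjusted p = 7.32e-06), HOXB2 at 4.93, 11 and 9.39 FPKM in CFPAC-1 and 0.0259, 0 and 0.0748 FPKM in BxPC-3, and HOXB8 at 4.95, 8.87 and 8.01 FPKM in CFPAC-1 and 0.0465, 0 and 0.0212 FPKM in BxPC-3. HOXB7 was expressed in both lines, at 14.8, 16.9 and 15.7 FPKM in BxPC-3 and 12.2, 23.2 and 22.3 FPKM in CFPAC-1, and was not called. Of 4 tested HOXA genes, 2 were higher in CFPAC-1, among them HOXA11 (-2.65), and HOXA10 was higher in BxPC-3, at 7.1, 6.86 and 8.04 FPKM in BxPC-3 and 2.35, 2.58 and 4.69 FPKM in CFPAC-1 (difference 1.02, limma adjusted p = 0.00966). Its difference was under the threshold of 1 without CFPAC-1 library 1 (0.88), CFPAC-1 library 2 (0.93) or BxPC-3 library 3 (0.96), and with each library centred on its median (0.88). The 1 member of the HOXD list tested, HAGLR, an antisense RNA of that cluster, was higher in BxPC-3 by 1.61. HOXA10 and HAGLR were chosen after their values were seen. From the HOXC cluster HOXC10 was at 16.01, 10.5 and 12.1 FPKM in CFPAC-1 and 1.95, 0.711 and 0.823 FPKM in BxPC-3. Of 41 listed cancer-testis genes, normally kept silent outside the germ line, 31 were below the filter. The 10 tested gave 9 higher in BxPC-3 and 1 higher in CFPAC-1. Genes present in 1 line only pass the filter through that line, so these counts are partly set by it. MAGEA1 was at 27.3, 34.3 and 33.7 FPKM in BxPC-3 and 0, 0 and 0.0315 FPKM in CFPAC-1 (difference 5.01, SE 0.15, limma adjusted p = 2.41e-06), MAGEA3 at 28.6, 37.8 and 37.9 FPKM in BxPC-3 and 0, 0 and 0.0739 FPKM in CFPAC-1, and CSAG1 at 25.5, 32.2 and 31.6 FPKM in BxPC-3 and 0 FPKM in each CFPAC-1 library. TEX19 was the exception, at 18.1, 3.63 and 3.84 FPKM in CFPAC-1 and 0.275, 0 and 0.0525 FPKM in BxPC-3 (difference -2.77, limma adjusted p = 0.00486), with library 1 highest. MAGEA3 and MAGEA6 are near-identical copies. Among 11 imprinted genes, H19 was at 91.2, 19.6 and 16.5 FPKM in BxPC-3 and 0.503, 2.28 and 1.92 FPKM in CFPAC-1 (difference 3.73, limma adjusted p = 0.00317) and its neighbour IGF2 at 2.98, 8.76 and 7.001 FPKM in CFPAC-1 and 0.231, 0.142 and 0.155 FPKM in BxPC-3 (difference -2.53, limma adjusted p = 0.000833), in opposite directions.

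Genes altered in pancreatic cancer differed most in the region of CDKN2A. CDKN2A, which encodes p16 and ARF, was at 25.2, 58.2 and 52.1 FPKM in CFPAC-1 and 0.1, 0 and 0.0118 FPKM in BxPC-3 (difference -5.39, SE 0.31, limma adjusted p = 2.23e-05). Its neighbour CDKN2B, encoding p15, was at 11.9, 13.3 and 14.6 FPKM in CFPAC-1 and 0.0606, 0 and 0 FPKM in BxPC-3 (difference -3.80, SE 0.15, limma adjusted p = 4.52e-06). KLHL9, further along the same region of chromosome 9, was at 3.52, 1.96 and 2.05 FPKM in CFPAC-1 and 0 FPKM in each BxPC-3 library (difference -1.78, limma adjusted p = 0.000448). MTAP, between them, was below the filter at 1.06, 0.924 and 0.69 FPKM in CFPAC-1 and 0.0037, 0.00374 and 0 FPKM in BxPC-3. FOCAD, beyond KLHL9, was present in both lines, at 2.86, 1.61 and 1.86 FPKM in BxPC-3 and 2.93, 0.68 and 0.886 FPKM in CFPAC-1, and was not called. SMAD4, the signal carrier of TGF-beta, was at 3.24, 1.06 and 1.53 FPKM in CFPAC-1 and 0 FPKM in each BxPC-3 library (difference -1.49, limma adjusted p = 0.00376), low in CFPAC-1 as well. CDK6, a kinase of G1, was at 7.76, 4.65 and 5.09 FPKM in BxPC-3 and 1.77, 0.45 and 0.833 FPKM in CFPAC-1 (difference 1.79, limma adjusted p = 0.00221). In all, 6 of 27 tested driver genes were higher in BxPC-3 and 3 in CFPAC-1.

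**Figure D3:**
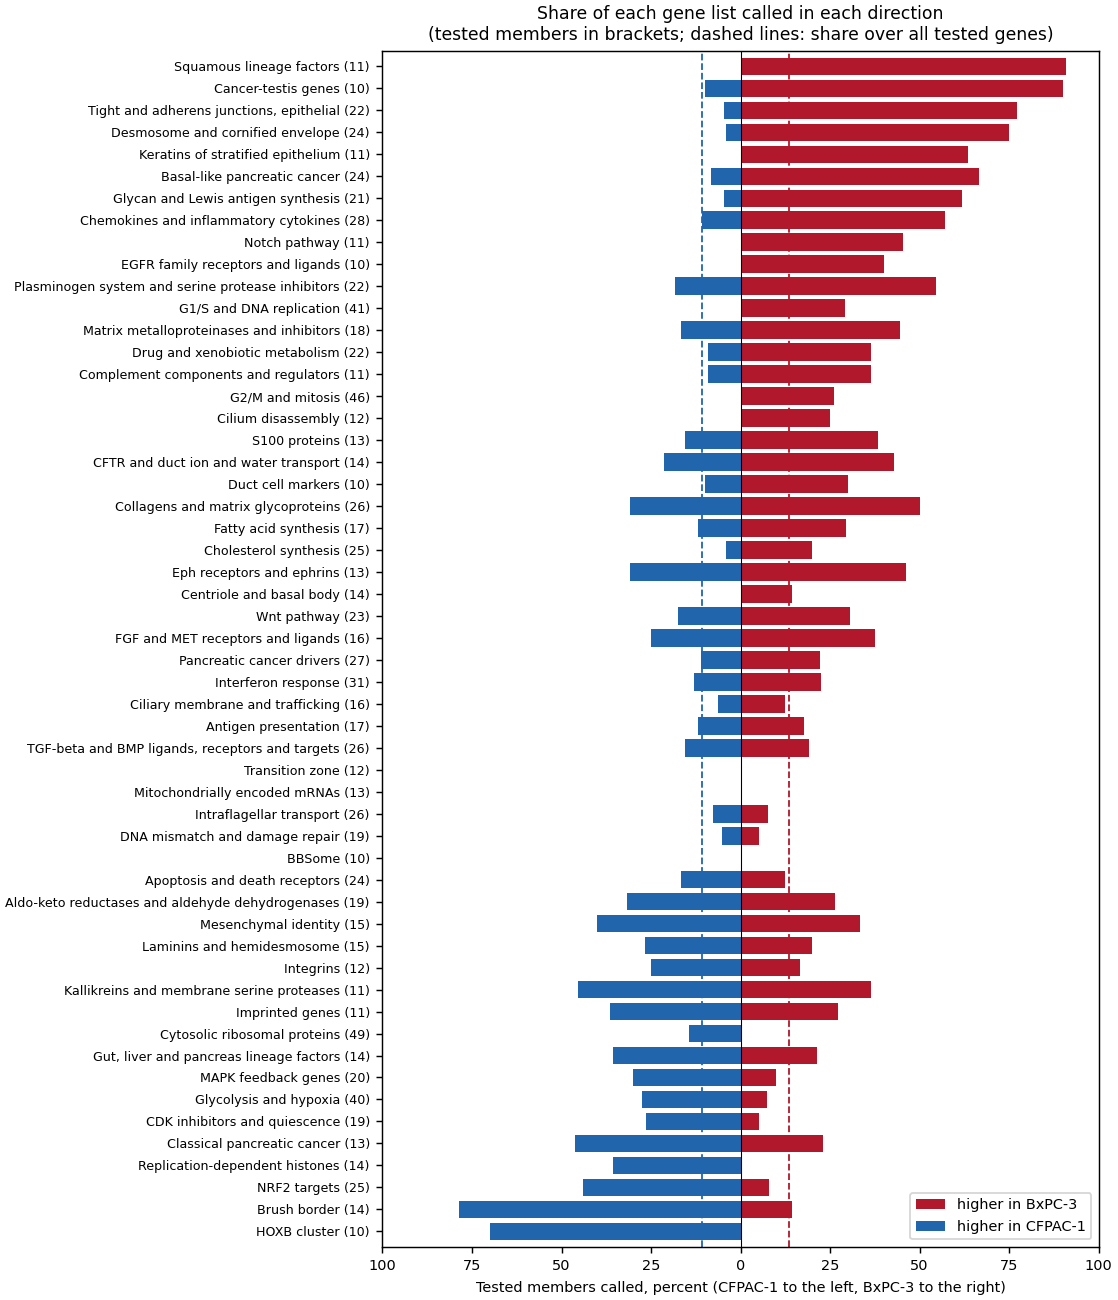
Percent of the tested members of each list called higher in BxPC-3 (red, to the right) and higher in CFPAC-1 (blue, to the left), for the lists with 10 or more tested members, whose number stands in brackets. Dashed lines mark 13.6% and 10.7%, the shares over all tested genes, which the squamous and junction lists exceed on the right, and the brush-border and HOXB lists on the left, while the BBSome and transition zone lists have no bar.

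Few genes of the cilium were called between lines that differ in ciliated share. Of 26 tested intraflagellar transport genes, 2 were higher in BxPC-3 and 2 in CFPAC-1, and the median was 0.12, or -0.02 with each library centred on its median. IFT52 was at 14.5, 15.6 and 15.5 FPKM in BxPC-3 and 6.44, 6.3 and 6.09 FPKM in CFPAC-1 (difference 1.15, limma adjusted p = 0.000581). IFT57 was at 5.69, 9.85 and 9.36 FPKM in BxPC-3 and 3.15, 2.85 and 2.89 FPKM in CFPAC-1 (difference 1.20, limma adjusted p = 0.00369). IFT27 was at 2.69, 2.08 and 1.96 FPKM in CFPAC-1 and 0.354, 0.171 and 0.271 FPKM in BxPC-3 (difference -1.35, limma adjusted p = 0.000557). IFT140 was at 5.79, 4.08 and 3.69 FPKM in CFPAC-1 and 2.3, 0.793 and 0.967 FPKM in BxPC-3 (difference -1.26, limma adjusted p = 0.00845). The calls of IFT57 and IFT140 were lost when libraries 2 and 3 of each line were averaged, with differences of 1.07 and -1.21 (limma adjusted p = 0.0571 and 0.0592). None of 10 tested BBSome genes and none of 12 transition zone genes was called, with medians of -0.01 and 0.33. TCTN3 of the transition zone differed by 0.85 (limma adjusted p = 0.00252), under the threshold of 1. The sign of the BBSome median varied with the scaling. Of 16 membrane and trafficking genes, 2 were higher in BxPC-3 and 1 in CFPAC-1. These were RAB11A, which sends vesicles to the cilium, at 30.4, 28.1 and 27.3 FPKM in BxPC-3 and 12.8, 12.7 and 13.6 FPKM in CFPAC-1 (difference 1.08, limma adjusted p = 0.000856), IFITM3, known as an interferon-induced membrane protein, and PKD1, polycystin 1, at 10.2, 5.42 and 6.06 FPKM in CFPAC-1 and 3.25, 1.55 and 1.6 FPKM in BxPC-3 (difference -1.39, limma adjusted p = 0.00742). The call of RAB11A was lost under median centring, at a difference of 0.94. STIL, which starts new centrioles, was higher in BxPC-3 by 1.20.

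Of 12 tested genes for taking cilia down, 3 were higher in BxPC-3, the line with more ciliated cells, and none in CFPAC-1. NEDD9, the scaffold that activates Aurora A at the basal body, was at 5.92, 5.68 and 6.16 FPKM in BxPC-3 and 0 FPKM in each CFPAC-1 library (difference 2.79, SE 0.13, limma adjusted p = 1.03e-05). AURKA, that kinase, was at 30.6, 32.96 and 19.7 FPKM in BxPC-3 and 7.18, 19.5 and 13.1 FPKM in CFPAC-1 (difference 1.08, limma adjusted p = 0.0453), and its call was lost under 11 of the alternatives run, with differences of 0.72 without CFPAC-1 library 1, 1.12 without its library 3, and 0.99 and 0.94 without BxPC-3 libraries 1 and 2. DYNLT1, a dynein light chain, was at 21.1, 32.2 and 32.8 FPKM in BxPC-3 and 6.72, 9.83 and 10.1 FPKM in CFPAC-1 (difference 1.58, limma adjusted p = 0.00166). In the Hedgehog list, 2 of 6 tested genes were higher in CFPAC-1 and none in BxPC-3. GLI1, both an effector and a target of the pathway, was at 2.26, 2.62 and 2.18 FPKM in CFPAC-1 and 0.0133, 0 and 0.0111 FPKM in BxPC-3 (difference -1.73, SE 0.14, limma adjusted p = 0.000104), and GLI2, its upstream activator, at 2.36, 1.8 and 1.97 FPKM in CFPAC-1 and 0.0912, 0.0148 and 0.0208 FPKM in BxPC-3 (difference -1.54, limma adjusted p = 0.000222). The other 12 of the 18 listed Hedgehog genes were below the filter.

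Part of the genes of dividing cells were higher in BxPC-3 in the same starved libraries. Of 41 tested G1/S and replication genes, 12 were higher in BxPC-3 and none in CFPAC-1, with a median of 0.66. Of 46 G2/M genes the counts were 12 and 0, and the median was 0.83. PCNA, the sliding clamp of replication, was at 206, 265 and 265 FPKM in BxPC-3 and 57.5, 83.6 and 81.3 FPKM in CFPAC-1 (difference 1.72, limma adjusted p = 0.000625). MKI67, the Ki-67 antigen, was at 17.4, 9.49 and 8.11 FPKM in BxPC-3 and 3.49, 2.63 and 3.41 FPKM in CFPAC-1 (difference 1.54, limma adjusted p = 0.00384), and CCNB2, a mitotic cyclin, at 29.8, 27.2 and 27.4 FPKM in BxPC-3 and 2.46, 6.96 and 6.8 FPKM in CFPAC-1 (difference 2.28, limma adjusted p = 0.00139). No BxPC-3 library overlapped CFPAC-1 for these 3 genes, and CFPAC-1 library 1 was the lowest for PCNA and CCNB2. Kinetochore and spindle genes DLGAP5 (2.09), KIF2C (1.76) and KIF23 (1.74) were higher in BxPC-3 as well. Among inhibitors of cyclin-dependent kinases, CDKN1A was at 47.6, 87.2 and 25.3 FPKM in BxPC-3 and 45.9, 41.5 and 40.5 FPKM in CFPAC-1 and CDKN1B at 19.8, 16.96 and 15.3 FPKM in BxPC-3 and 16.8, 11.9 and 12.4 FPKM in CFPAC-1, and neither was called. CDKN1C, p57, was at 1.81, 2.42 and 1.7 FPKM in CFPAC-1 and 0.113, 0.118 and 0.0819 FPKM in BxPC-3 (difference -1.42, limma adjusted p = 0.000404). The antiproliferative gene BTG1 was at 60.5, 44.8 and 45.9 FPKM in CFPAC-1 and 21.1, 11.2 and 11.7 FPKM in BxPC-3 (difference -1.76, limma adjusted p = 0.00176). With each library centred on its median, the counts higher in BxPC-3 were 6 G1/S and 5 G2/M genes. Without the libraries numbered 1 they were 8 and 7, with 1 G1/S gene higher in CFPAC-1.

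Of 10 tested receptors and ligands of the epidermal growth factor family, 4 were higher in BxPC-3 and none in CFPAC-1. HBEGF was at 37.2, 110.4 and 109 FPKM in BxPC-3 and 12.2, 8.29 and 8.32 FPKM in CFPAC-1 (difference 2.89, limma adjusted p = 0.00154), TGFA at 22.5, 35.5 and 34.6 FPKM in BxPC-3 and 8.61, 2.5 and 2.92 FPKM in CFPAC-1 (difference 2.62, limma adjusted p = 0.00185), and AREG at 36.4, 175 and 172 FPKM in BxPC-3 and 23.8, 24.7 and 24.5 FPKM in CFPAC-1 (difference 2.04, limma adjusted p = 0.0238). AREG in BxPC-3 library 1 was far under the other libraries of its line, and its call was lost on leaving out any CFPAC-1 library or BxPC-3 library 2 or 3, with differences of 1.67 to 2.05 (limma adjusted p = 0.0579 to 0.0795). EGFR, the receptor, was at 51.6, 28.9 and 32.3 FPKM in BxPC-3 and 70.5, 24.9 and 34.98 FPKM in CFPAC-1, with overlapping ranges, and was not called (difference -0.12, limma adjusted p = 0.835). Feedback genes of the MAP kinase pathway, which rise when the pathway is active, were divided. DUSP5, a phosphatase of ERK, was at 27.5, 43.7 and 46.3 FPKM in BxPC-3 and 1.13, 2.59 and 2.65 FPKM in CFPAC-1 (difference 3.69, limma adjusted p = 9.13e-05). SPRY2, SPRY4, ETV4 and ETV5 were higher in CFPAC-1, with SPRY4 at 13.6, 10.6 and 11.9 FPKM in CFPAC-1 and 3.26, 2.49 and 2.48 FPKM in BxPC-3 (difference -1.80, limma adjusted p = 0.000204) and the others at -1.81, -1.15 and -1.14. The counts were 2 of 20 higher in BxPC-3 and 6 in CFPAC-1.

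Of 16 tested receptors and ligands of the FGF and MET families, 6 were higher in BxPC-3 and 4 in CFPAC-1, or 4 and 5 with each library centred on its median. FGFR2 was at 3.01, 1.72 and 1.53 FPKM in BxPC-3 and 0, 0 and 0.0143 FPKM in CFPAC-1 (difference 1.59, limma adjusted p = 0.000848), and FGFR3 was at 27.8, 7.34 and 3.63 FPKM in BxPC-3 and 0.779, 0.914 and 0.929 FPKM in CFPAC-1 (difference 2.47, limma adjusted p = 0.0136), with library 1 highest. FGFR4 was at 9.36, 13.2 and 13.1 FPKM in CFPAC-1 and 0.438, 0.297 and 0.261 FPKM in BxPC-3 (difference -3.26, SE 0.18, limma adjusted p = 1.84e-05), FGFR1 at 3.14, 2.38 and 2.63 FPKM in CFPAC-1 and 0.178, 0.122 and 0.16 FPKM in BxPC-3 (difference -1.68, limma adjusted p = 0.000156), and the ligand FGF2 at 5.14, 3.63 and 3.9 FPKM in CFPAC-1 and 0.0115, 0.00618 and 0 FPKM in BxPC-3 (difference -2.37, limma adjusted p = 4.91e-05). INSR, the insulin receptor, was at 3.8, 2.84 and 3.11 FPKM in CFPAC-1 and 0.28, 0.135 and 0.0978 FPKM in BxPC-3 (difference -1.86, limma adjusted p = 0.000138). MET, the receptor of hepatocyte growth factor, was not called, at 51.6, 37.97 and 38.4 FPKM in BxPC-3 and 48.1, 22.7 and 32.1 FPKM in CFPAC-1. Among the IGF-binding proteins, IGFBP2 was at 13.2, 4.94 and 4.99 FPKM in BxPC-3 and 0, 0.0314 and 0.0112 FPKM in CFPAC-1 (difference 2.97, limma adjusted p = 0.000504), in the direction opposite to IGFBP1 and IGFBP3.

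Of 11 tested Notch genes, 5 were higher in BxPC-3 and none in CFPAC-1. The ligand JAG2 was at 46.4, 19.7 and 37.8 FPKM in BxPC-3 and 1.12, 1.4 and 1.1 FPKM in CFPAC-1 (difference 3.93, SE 0.30, limma adjusted p = 8.49e-05) and the ligand DLL1 at 12.2, 10.8 and 11.5 FPKM in BxPC-3 and 0.00323, 0 and 0.014 FPKM in CFPAC-1 (difference 3.63, SE 0.14, limma adjusted p = 4.28e-06). LFNG, which modifies the receptors, and the targets NRARP and HES4 were higher by 2.02, 1.96 and 1.71. NOTCH1 was not called, at 8.23, 3.02 and 3.87 FPKM in BxPC-3 and 13.9, 7.47 and 7.91 FPKM in CFPAC-1, but was called higher in CFPAC-1 without BxPC-3 library 1, at -1.23. Of 23 Wnt genes, 7 were higher in BxPC-3 and 4 in CFPAC-1. WNT7A was at 13.8, 15.03 and 14.6 FPKM in BxPC-3 and 0 FPKM in each CFPAC-1 library (difference 3.95, SE 0.13, limma adjusted p = 2.96e-06) and the receptor FZD6 at 29.5, 21.4 and 17.7 FPKM in BxPC-3 and 1.63, 1.14 and 1.87 FPKM in CFPAC-1 (difference 3.21, limma adjusted p = 5.36e-05), while WNT11 was at 3.94, 5.44 and 5.29 FPKM in CFPAC-1 and 0.102, 0 and 0.0644 FPKM in BxPC-3 (difference -2.47, limma adjusted p = 4.15e-05) and FZD1 at 7.51, 15.7 and 16.6 FPKM in CFPAC-1 and 2.7, 0.829 and 0.962 FPKM in BxPC-3 (difference -2.52, limma adjusted p = 0.00162). NOTUM, which inactivates Wnt ligands, was at 1.05, 1.35 and 1.25 FPKM in CFPAC-1 and 0 FPKM in each BxPC-3 library. In the TGF-beta and BMP list, 5 of 26 were higher in BxPC-3 and 4 in CFPAC-1, or 3 and 7 without the libraries numbered 1. ID2, a target of the pathway, was at 2.19, 3.47 and 4.09 FPKM in CFPAC-1 and 0.0274, 0.0488 and 0.0689 FPKM in BxPC-3 (difference -1.99, limma adjusted p = 0.000291). The BMP antagonist NOG was at 1.74, 5.67 and 5.08 FPKM in CFPAC-1 and 0.0641, 0.0804 and 0.0462 FPKM in BxPC-3. Among Eph receptors and ephrins, EPHB6 (4.21), EPHA1 (3.61), EPHB3 (2.60) and EPHB2 (1.63) were higher in BxPC-3 and the ligands EFNB2 (-1.76) and EFNA2 (-1.39) higher in CFPAC-1.

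Several hypoxia-responsive genes were higher in CFPAC-1, where HIF1A itself was low. HIF1A, the oxygen-regulated factor, was at 55.96, 59.7 and 63.6 FPKM in BxPC-3 and 3.07, 1.53 and 1.91 FPKM in CFPAC-1 (difference 4.29, SE 0.21, limma adjusted p = 1.03e-05). NDRG1 was at 401, 350.4 and 321 FPKM in CFPAC-1 and 61.1, 27.2 and 26.5 FPKM in BxPC-3 (difference -3.30, SE 0.32, limma adjusted p = 0.000266), ANGPTL4 at 190, 114 and 99.7 FPKM in CFPAC-1 and 11.2, 23.9 and 22.9 FPKM in BxPC-3 (difference -2.75, limma adjusted p = 0.000837), and CA9, carbonic anhydrase IX, at 189, 293 and 263 FPKM in CFPAC-1 and 57.5, 77.5 and 77.2 FPKM in BxPC-3 (difference -1.79, limma adjusted p = 0.000717). All are known targets of hypoxia-inducible factors, and all CFPAC-1 libraries were above all BxPC-3 libraries. Of 40 tested glycolysis and hypoxia genes, 11 were higher in CFPAC-1 and 3 in BxPC-3 (LDHB, HIF1A and P4HA2), and 17 and 2 with each library centred on its median. GAPDH, of core glycolysis, was at 3369, 4424 and 4339 FPKM in BxPC-3 and 3543, 5062 and 4134 FPKM in CFPAC-1 and was not called.

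Antioxidant genes were more often higher in CFPAC-1. Of 25 tested NRF2 targets, 11 were higher in CFPAC-1 and 2 in BxPC-3, with a median of -0.59. HMOX1, heme oxygenase, was at 61.7, 57.5 and 53.3 FPKM in CFPAC-1 and 1.52, 1.41 and 1.24 FPKM in BxPC-3 (difference -4.61, SE 0.14, limma adjusted p = 2.5e-06). NQO1, a quinone reductase, was at 252, 341 and 341 FPKM in CFPAC-1 and 28.4, 57.4 and 37.3 FPKM in BxPC-3 (difference -2.94, limma adjusted p = 0.000213), FTH1, the ferritin heavy chain, at 3907, 5740 and 5302 FPKM in CFPAC-1 and 512, 909 and 766 FPKM in BxPC-3 (difference -2.79, limma adjusted p = 0.000205), and the exporter ABCC2 at 19.8, 9.78 and 12.1 FPKM in CFPAC-1 and 0.22, 0.0279 and 0.0259 FPKM in BxPC-3 (difference -3.72, limma adjusted p = 5.11e-05). GPX2, a glutathione peroxidase of gut epithelium, was at 17.9, 11.98 and 13.8 FPKM in BxPC-3 and 0.237, 1.13 and 1.18 FPKM in CFPAC-1 (difference 3.10, limma adjusted p = 0.000143), in the other direction. Aldo-keto reductases divided by subfamily. AKR1C2 was at 214, 229 and 225 FPKM in CFPAC-1 and 4.83, 4.43 and 4.51 FPKM in BxPC-3 (difference -5.32, SE 0.14, limma adjusted p = 1.44e-06) and AKR1C1 at 183, 178 and 175 FPKM in CFPAC-1 and 11.1, 9.48 and 8.94 FPKM in BxPC-3, whereas AKR1B1, aldose reductase, was at 32.1, 55.1 and 54.5 FPKM in BxPC-3 and 1.44, 1.69 and 2.15 FPKM in CFPAC-1 (difference 4.09, limma adjusted p = 2.66e-05). ALDH1A3, which makes retinoic acid, was at 229, 280 and 295 FPKM in BxPC-3 and 13.6, 28.3 and 32.8 FPKM in CFPAC-1 (difference 3.46, limma adjusted p = 0.000205). AKR1C1 and AKR1C2 may share reads. Of conjugating enzymes, UGT1A10 was at 56.1, 25.7 and 29.2 FPKM in BxPC-3 and 0 FPKM in each CFPAC-1 library (difference 5.16, limma adjusted p = 1.91e-05) and GSTM3 at 10.04, 16.3 and 15.1 FPKM in BxPC-3 and 0.0717, 0.125 and 0.234 FPKM in CFPAC-1 (difference 3.67, limma adjusted p = 1.98e-05). UGT1A genes share their last exons, so single members are uncertain.

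Genes of lipid synthesis were called in both directions. Of 25 cholesterol genes, 5 were higher in BxPC-3 and 1 in CFPAC-1, beside 13.6% and 10.7% of all tested genes. FADS1 and FADS2, neighbouring desaturases of polyunsaturated fatty acids, went in opposite directions, FADS1 at 9.89, 8.69 and 8.2 FPKM in BxPC-3 and 4.64, 2.88 and 3.003 FPKM in CFPAC-1 (difference 1.16, limma adjusted p = 0.00276) and FADS2 at 11.9, 15.4 and 15.9 FPKM in CFPAC-1 and 1.38, 1.25 and 1.16 FPKM in BxPC-3 (difference -2.76, limma adjusted p = 2.64e-05).

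Inflammatory mediators were mostly higher in BxPC-3, 16 of 28 tested chemokines and cytokines against 3 higher in CFPAC-1. CXCL14, a chemokine of epithelium, was at 40.1, 26.5 and 25.6 FPKM in BxPC-3 and 0 FPKM in each CFPAC-1 library (difference 4.96, SE 0.20, limma adjusted p = 5.24e-06). IL1B was at 21.4, 145 and 142 FPKM in BxPC-3 and 3.27, 3.16 and 3.54 FPKM in CFPAC-1 (difference 4.17, limma adjusted p = 0.00258) and IL1A at 26.4, 178 and 187 FPKM in BxPC-3 and 13.3, 4.07 and 5.7 FPKM in CFPAC-1 (difference 3.63, limma adjusted p = 0.00806), with BxPC-3 library 1 far under libraries 2 and 3 in both. CSF3, the granulocyte growth factor, was at 3.12, 30.4 and 27.8 FPKM in BxPC-3 and 0.138, 0.199 and 0.261 FPKM in CFPAC-1 (difference 3.69, limma adjusted p = 0.00578), with the same shortfall in library 1. IL1RN, the antagonist of interleukin-1, was even over the libraries, at 15.4, 18.8 and 18.2 FPKM in BxPC-3 and 0.624, 0.542 and 0.272 FPKM in CFPAC-1 (difference 3.65, limma adjusted p = 8.53e-06). IL32 was at 27.9, 23.3 and 20.2 FPKM in CFPAC-1 and 0.91, 2.26 and 2.33 FPKM in BxPC-3 (difference -3.16, limma adjusted p = 0.000107) and CXCL1, which attracts neutrophils, at 204, 230 and 221 FPKM in CFPAC-1 and 34.7, 110.2 and 112 FPKM in BxPC-3 (difference -1.52, limma adjusted p = 0.0262), both higher in CFPAC-1. The call of CXCL1 was lost on leaving out any CFPAC-1 library, at -1.48 to -1.57, and without BxPC-3 library 1, at -0.97. CXCL8 was at 13.8, 62.3 and 60.5 FPKM in BxPC-3 and 155, 98.3 and 102 FPKM in CFPAC-1 and missed the adjusted threshold (limma adjusted p = 0.0529), although every CFPAC-1 library was above every BxPC-3 library, and was called without BxPC-3 library 2, at -1.95. SAA1, an acute-phase protein, was at 50.1, 272 and 259 FPKM in BxPC-3 and 2.9, 19.7 and 19.4 FPKM in CFPAC-1 (difference 3.70, limma adjusted p = 0.0112).

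Among S100 proteins, 5 of 13 tested were higher in BxPC-3 and 2 in CFPAC-1, or 4 without the libraries numbered 1. S100A9 was at 451, 1601 and 1413 FPKM in BxPC-3 and 0.186, 5.96 and 5.21 FPKM in CFPAC-1 (difference 8.08, SE 0.76, limma adjusted p = 0.000222) and its partner S100A8 at 15.8, 98.2 and 91.4 FPKM in BxPC-3 and 0 FPKM in each CFPAC-1 library (difference 5.75, limma adjusted p = 0.000455), the pair that forms calprotectin. S100A2, a p63 target of squamous cells, was at 406, 649 and 614 FPKM in BxPC-3 and 5.27, 12.98 and 11.4 FPKM in CFPAC-1 (difference 5.73, limma adjusted p = 2.65e-05). The complement genes C1R (2.62) and C3 (2.45) were higher in BxPC-3 and CFD (-3.01) in CFPAC-1. Of 31 interferon-response genes, 7 were higher in BxPC-3 and 4 in CFPAC-1. IFI27 was at 20.4, 23.6 and 26.7 FPKM in BxPC-3 and 0.112, 0.482 and 0.172 FPKM in CFPAC-1 (difference 4.29, limma adjusted p = 5.99e-06) and IFITM1 at 79.3, 53.9 and 30.3 FPKM in BxPC-3 and 1.53, 4.93 and 5.61 FPKM in CFPAC-1 (difference 3.48, limma adjusted p = 0.000991), while IRF7, the factor that amplifies the response, was at 15.3, 7.64 and 6.67 FPKM in CFPAC-1 and 0.3, 0.016 and 0 FPKM in BxPC-3 (difference -3.23, limma adjusted p = 0.000205). ERAP2, a peptidase that trims peptides for class I molecules, was at 27.8, 23.5 and 22.96 FPKM in BxPC-3 and 0.591, 0.237 and 0.282 FPKM in CFPAC-1 (difference 4.24, SE 0.17, limma adjusted p = 5.17e-06).

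Matrix genes were called in both directions. Of 26 collagens and matrix glycoproteins, 13 were higher in BxPC-3 and 8 in CFPAC-1, so 21 of 26 were called. COL12A1 was at 40.4, 17.2 and 18.5 FPKM in BxPC-3 and 0.0039, 0.0079 and 0.0237 FPKM in CFPAC-1 (difference 4.60, SE 0.31, limma adjusted p = 4.81e-05), and COL4A5 and COL4A6, adjoining collagen IV genes of epithelial basement membrane, at 14.6, 10.4 and 8.65 FPKM in BxPC-3 and 0 FPKM in each CFPAC-1 library and 24.7, 18.3 and 18.8 FPKM in BxPC-3 and 0.0783, 0.187 and 0.25 FPKM in CFPAC-1. THBS1, thrombospondin 1, was at 34.9, 77.8 and 87.8 FPKM in BxPC-3 and 0.674, 3.85 and 5.16 FPKM in CFPAC-1 (difference 4.10, limma adjusted p = 0.00101). In the other direction, LUM, the proteoglycan lumican, was at 25.5, 108 and 104 FPKM in CFPAC-1 and 0.0911, 0.0609 and 0.0759 FPKM in BxPC-3 (difference -5.96, limma adjusted p = 0.000149) and COL6A1 at 32.6, 43.6 and 41.7 FPKM in CFPAC-1 and 1.4, 2.87 and 2.88 FPKM in BxPC-3 (difference -3.60, limma adjusted p = 4.06e-05). Laminin chains differed by subunit, LAMA3 at 26.5, 16.2 and 17.8 FPKM in BxPC-3 and 1.07, 1.04 and 1.49 FPKM in CFPAC-1 (difference 3.24, SE 0.21, limma adjusted p = 4.19e-05) and LAMB2 at 30.8, 25.2 and 25.01 FPKM in CFPAC-1 and 0.205, 0 and 0.0148 FPKM in BxPC-3 (difference -4.70, SE 0.16, limma adjusted p = 3.25e-06).

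Many metalloproteinases, plasminogen-system genes and inhibitors were higher in BxPC-3. Of 18 tested metalloproteinases and inhibitors, 8 were higher in BxPC-3 and 3 in CFPAC-1. MMP14, a membrane collagenase, was at 192, 187 and 179 FPKM in BxPC-3 and 16.5, 28.01 and 24.99 FPKM in CFPAC-1 (difference 2.98, SE 0.21, limma adjusted p = 5.88e-05), and MMP1 at 66.6, 177 and 174 FPKM in BxPC-3 and 6.67, 9.94 and 9.76 FPKM in CFPAC-1 (difference 3.73, limma adjusted p = 0.000351). The inhibitors TIMP3, TIMP4 and TIMP2 did not follow each other. TIMP3 was at 42.5, 25.8 and 25.3 FPKM in BxPC-3 and 0 FPKM in each CFPAC-1 library (difference 4.97, limma adjusted p = 7.58e-06), TIMP4 at 37.9, 59.2 and 54.8 FPKM in CFPAC-1 and 0.639, 0.315 and 0.463 FPKM in BxPC-3 (difference -5.11, limma adjusted p = 5.24e-06) and TIMP2 at 80.2, 155 and 121 FPKM in CFPAC-1 and 15.3, 12.3 and 16.5 FPKM in BxPC-3 (difference -2.89, limma adjusted p = 0.000175), while TIMP1 was at 142, 169.7 and 174 FPKM in BxPC-3 and 128, 162 and 151 FPKM in CFPAC-1 and was not called. Of 22 genes of the plasminogen system and serine protease inhibitors, 12 were higher in BxPC-3 and 4 in CFPAC-1. PI3, elafin, was at 490.2, 584 and 594 FPKM in BxPC-3 and 21.1, 25.5 and 28.9 FPKM in CFPAC-1 (difference 4.42, limma adjusted p = 5.17e-06), SERPINB3 at 101, 29.9 and 28.6 FPKM in BxPC-3 and 0 FPKM in each CFPAC-1 library (difference 5.50, limma adjusted p = 0.000121), and SERPINE2, protease nexin 1, at 82.3, 153 and 167 FPKM in CFPAC-1 and 6.73, 3.54 and 4.07 FPKM in BxPC-3 (difference -4.52, limma adjusted p = 6.03e-05). SERPINB3 has a near-identical copy in SERPINB4. Among membrane serine proteases, ST14, matriptase, was at 41.03, 44 and 44.8 FPKM in BxPC-3 and 2.93, 6.71 and 6.41 FPKM in CFPAC-1 and PRSS8, prostasin, at 25.9, 18.1 and 18.2 FPKM in BxPC-3 and 0.324, 0.785 and 0.574 FPKM in CFPAC-1, with differences of 2.86 and 3.79, and KLK10 was at 50.6, 41.02 and 46.8 FPKM in CFPAC-1 and 7.53, 7.001 and 3.82 FPKM in BxPC-3 (difference -2.77, limma adjusted p = 0.00016).

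None of 13 mitochondrial mRNAs was called, with a median difference of 0.67, and under quantile normalization 4 were higher in BxPC-3. Of 49 cytosolic ribosomal protein genes, 7 were higher in CFPAC-1 and none in BxPC-3, with a median of -0.36. Of 14 replication-dependent histone genes, 5 were higher in CFPAC-1, among them HIST1H1C at 204, 417 and 383 FPKM in CFPAC-1 and 26.2, 72.4 and 64.9 FPKM in BxPC-3. ACTB, cytoplasmic actin, often used as a reference, was at 539, 887 and 980.4 FPKM in BxPC-3 and 241, 400.2 and 497 FPKM in CFPAC-1 (difference 1.09, limma adjusted p = 0.0329) and so was itself called. That call was lost without CFPAC-1 library 1 or 2 or BxPC-3 library 2 or 3, with differences of 0.80, 1.16, 1.00 and 0.93.

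Called genes of one direction lay next to each other on the chromosomes. Coordinates are from GENCODE 29 on GRCh38 and the runs are of neighbouring tested genes, described with no test. The longest run was of 16 genes higher in CFPAC-1 on chromosome 2, from 3497361 to 10054836, with a median of -1.49 and ID2 among them. The next was the epidermal cluster of chromosome 1, from 152985231 to 153460701, where 13 neighbours from SPRR1A to S100A7 were higher in BxPC-3 with a median of 3.83. A run of 9 on chromosome X, from 152166234 to 152769747, held MAGEA and CSAG genes, and a run of 8 on chromosome 12, from 52168996 to 52814551, held keratins. A run of 8 on chromosome 15, from 44825747 to 45448761, held DUOX genes and C15orf48. Higher in CFPAC-1 were 6 neighbours of the HOXB cluster on chromosome 17, from 48540894 to 48604992, and 6 on chromosome 10, from 71747559 to 72276036, around PSAP. Genes named here for position fall outside the rule for named genes.

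Chromosomes differed as a whole as well. The median difference was 0.60 on chromosome X, 0.58 on 15, 0.53 on 14 and 0.44 on 18, against 0.13 over all tested genes, and -0.42 on chromosome 8 and -0.28 on 16. On chromosome X, 30.4% of 362 tested genes were higher in BxPC-3 and 4.7% higher in CFPAC-1. On chromosome 8, 25% of 416 were higher in CFPAC-1 and 8.41% in BxPC-3. Differences in gene dosage were not measured here.

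**Figure D4:**
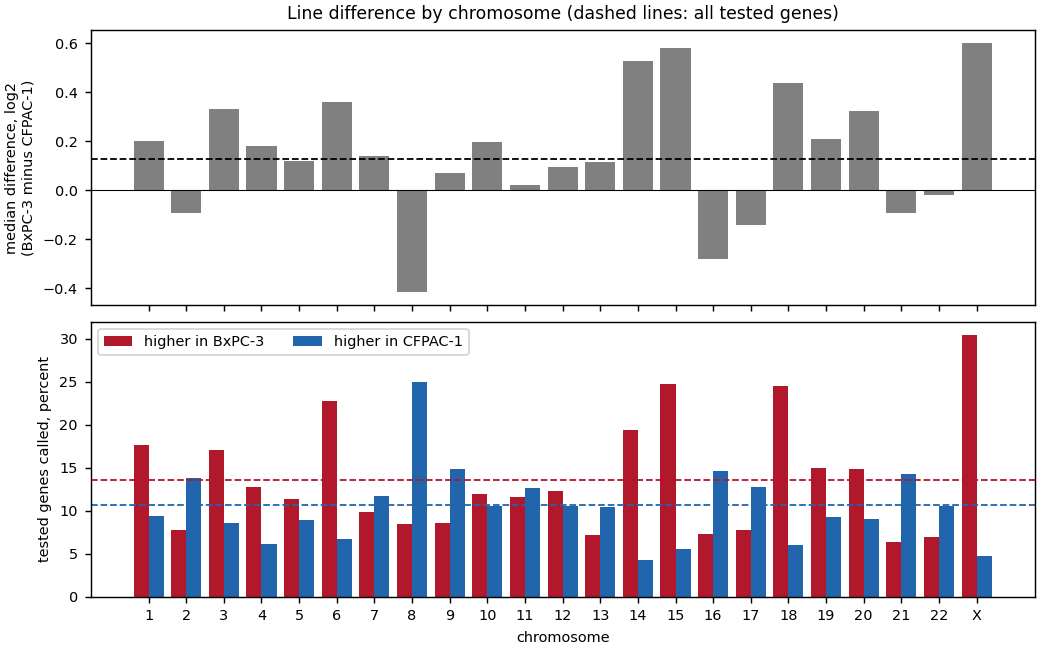
Median log2 difference of the tested genes of each chromosome (upper panel, BxPC-3 minus CFPAC-1) and percent of them called in each direction (lower panel, red BxPC-3, blue CFPAC-1), with dashed lines at the values over all tested genes. Chromosomes X, 15, 14 and 18 stand highest above the line in the upper panel, and chromosomes 8 and 16 have the lowest medians.

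The line differences were set beside the control libraries, which did not enter the fit. Of the 1607 genes higher in starved BxPC-3, 1437 (89.4%) were also higher in all 3 BxPC-3 controls than in CFPAC-1 control 1, against 37.3% of all tested genes. Of the 1261 higher in starved CFPAC-1, 1145 (90.8%) were higher in control 1 than in all BxPC-3 controls, against 41.2%. Against CFPAC-1 controls 2 and 3 the shares were 65.5% and 58.2%, with backgrounds of 32% and 37.3%. At least 2-fold in the same direction were 64.4% and 68.1% against control 1, but 44% and 28.8% against controls 2 and 3. The shares of all tested genes at this 2-fold threshold were not computed, so these values have no background. Against controls 2 and 3, 250 of the 1607 and 245 of the 1261 genes were opposite with no overlap. Over all tested genes, 37.3% did not overlap with CFPAC-1 controls 2 and 3 higher, and 32% with the BxPC-3 controls higher. Median differences, 1.505 and -1.537 when starved, were 0.775 and -0.428 against controls 2 and 3. VIM was at 569, 699.9 and 596 FPKM in CFPAC-1 control. CDKN2A was at 49.1, 0 and 0 FPKM in CFPAC-1 control, LDHB at 0, 176 and 186 FPKM in CFPAC-1 control, and IGFBP1 at 67.6, 0.239 and 0.288 FPKM in CFPAC-1 control. KRT19 was at 532, 7.42 and 7.67 FPKM in CFPAC-1 control. Control 1 therefore lay with the starved CFPAC-1 libraries for CDKN2A and LDHB, and controls 2 and 3 did not, although VIM was high in all 3. The library labels are used as deposited, and the source of the split was not tested.

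**Figure D5:**
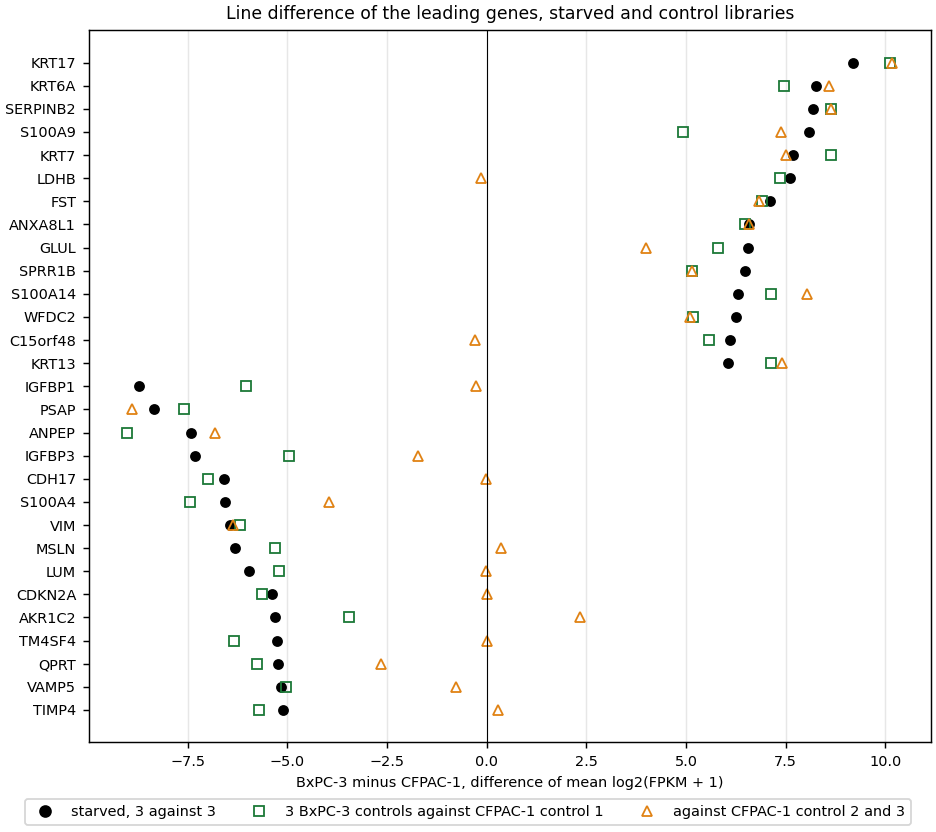
Difference of mean log2(FPKM + 1), BxPC-3 minus CFPAC-1, of the leading genes in the starved libraries (black circles), in the controls with CFPAC-1 control 1 (green squares) and with CFPAC-1 controls 2 and 3 (orange triangles). Squares lie on the side of the circles for all genes shown, and triangles lie near 0 for LDHB, C15orf48, IGFBP1, CDH17, MSLN, LUM, CDKN2A, TM4SF4 and TIMP4, and on the other side of 0 for AKR1C2.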

How the data were processed

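RNA-seq libraries of 2 lines were compared after serum starvation, 3 libraries per line. The deposited table holds log2 values, given as log2(FPKM + 1) by the authors per the file headers and the range of values, and FPKM was recovered by undoing the logarithm. FastQC, StringTie and GRCh38 appear in the submitters' processing notes, and which aligner and annotation were used is not given in the sources used here. Depth in reads is unknown, so no counting interval can be given, and the number of libraries limits the precision.

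Genes with at least 1 FPKM in 3 of the 6 libraries were tested on log2(FPKM + 1), two-sided and without covariates, by limma (version 3.58.1, under R 4.3.3), with Benjamini-Hochberg adjustment over all 11780. This scale understates the differences of low genes. The fit was tested on simulated data. Same-numbered libraries of the 2 lines deviated together (r = 0.283, 0.278 and 0.112 across genes), and the numbers were taken as pairs in an alternative fit. BxPC-3 library 3 with CFPAC-1 library 2 (0.186) and library 2 with 3 (0.139) did so too. Library 1 of either line against 2 or 3 of the other gave -0.294 to -0.158. These values set library 1 apart and do not single out pairs among libraries 2 and 3. The members, the gene lists and the tests were chosen with earlier results of these data known, and the lists overlap in part. Genes named are the 15 leading ones per direction (mean of at least 10 FPKM, no overlap), up to 5 called members per list and direction with the largest difference, up to 3 uncalled members of highest level, and a set list of drivers and reference genes; some of these are not reported here. Near-identical genes may share reads, since the counting is not described. Alternatives changed the pseudocount, filter, scaling, model and libraries. Coordinates are from GENCODE 29 and promoters from RefSeq.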

Additional observations from a re-analysis of the deposited data

Results flagged for a closer look

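For 10 of the named genes that were called, the difference between lines in the control libraries was opposite to that in the starved libraries, with no overlap and at least 2-fold, when BxPC-3 controls 1 to 3 were set against CFPAC-1 controls 2 and 3. Higher in starved CFPAC-1 but higher in the BxPC-3 controls, on the scale of log2(FPKM + 1), were IL32 (1.08), NDRG1 (2.1), CA9 (1.02), EFNB2 (3.08), KLK10 (3.04), SERPINE2 (1.25), FAM83A (3.74), AKR1C2 (2.33) and AKR1C1 (3.55). Higher in starved BxPC-3 but lower in the BxPC-3 controls was FADS1 (-1.87). The difference between the states was not tested. Against CFPAC-1 control 1, no named gene that was called met the same criteria, and leaving that control out was decided with its values known. The 3 genes of the hypoxia and antioxidant lists with reversed differences of over 2 on this scale were NDRG1, AKR1C1 and AKR1C2.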

How the results depend on the processing

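With a mean of at least 5 FPKM, 5975 genes were tested and 1435 were called, 842 higher in BxPC-3 and 593 higher in CFPAC-1, since fewer genes were tested. Leaving out single libraries gave 2707 to 2962 calls, with 1534 to 1679 higher in BxPC-3 and 1173 to 1312 higher in CFPAC-1. With the replicate block, 2879 genes were called (1617 and 1262), and among the named genes the pairing changed no call but that of KRT8, called at -1.05. A pseudocount of 0.1 gave 3656 calls, quantile normalization 2782, median centring 2795 and removal of mitochondrial genes 3536. Over all alternatives, 23 of the 216 named genes that were called lost the call at least once, and none of them changed sign. Uncalled genes that did were CDKN1A (-0.29 to 0.59 over single libraries left out), EGFR (-0.44 to 0.29 over single libraries left out, and 0.05 without both libraries numbered 1), GAPDH (0.24 under quantile normalization, -0.19 to 0.07 over single libraries), KRT14 (-0.68 to 0.92 over single libraries, and -0.31 without both libraries numbered 1) and KRT19 (-0.14 without both). The cause was not tested. Leaving out both libraries numbered 1 was chosen after seeing the data. Depth is unknown, so differences of genes near 1 FPKM are the least certain, and 3 libraries per line limit the precision.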

Other observations

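Genes of duct ion and water transport divided between the starved lines. Of 14 tested, 6 were higher in BxPC-3 and 3 in CFPAC-1. AQP3, a water and glycerol channel, was at 204, 47.4 and 46.4 FPKM in BxPC-3 and 0.828, 1.99 and 2.25 FPKM in CFPAC-1 (difference 4.90, limma adjusted p = 0.000578), with library 1 the highest. ANO1, a calcium-activated chloride channel, differed by 2.87 and the carbonic anhydrase CA12 by 1.66. The sodium-proton exchanger SLC9A3 of absorptive epithelium was higher in CFPAC-1, with a difference of -1.84. CFTR, on the same list, was at or near 0 in both lines.

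Of 24 genes of cell death, 3 were higher in BxPC-3 and 4 in CFPAC-1, or 2 and 5 with each library centred on its median. The shares over all tested genes were 13.6% and 10.7%, so these counts do not set the list apart. CASP1, the caspase of inflammasomes, differed by 3.11, and BIK, a death-promoting member of the BCL2 family, by 1.91. The tumour necrosis factor receptor TNFRSF1B was higher in CFPAC-1, with a difference of -1.70. Of 4 tested metallothioneins, which bind zinc and copper, MT1F was higher in BxPC-3 by 1.21. MT1E was higher in CFPAC-1, at -1.20, or -0.93 without the libraries numbered 1.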
